A study of Mus musculus with 8 samples.

Results

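Box C/D snoRNA genes outside the imprinted clusters were examined in total RNA of the mouse hippocampus, a brain region of learning and memory. The rule that chose the genes used the annotation only, though it was set with earlier results of these data known. Each gene of the count table was joined to GENCODE M21 by its identifier, and a gene was taken where its type was snoRNA and its symbol began with Snord. Genes on chromosome 7 between the start of Ube3a and the end of Snrpn were left out, as were genes on chromosome 12 between the start of Dlk1 and the end of Dio3. Of 55487 listed genes, 1507 were snoRNA genes and 98 of these had a Snord symbol. The chromosome 7 span held 19 of them and the chromosome 12 span held 0, which left 79 genes, referred to here as the members. The symbol Snord80 belongs to 2 of these genes, which overlap each other. A box C/D snoRNA gene listed under another symbol is not a member and is counted with the other snoRNA genes.

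The samples were left hippocampi of 15-month-old B6C3 mice, 4 with the APPswe/PS1dE9 transgenes (APP/PS1) and 4 wild-type littermates. The mice were male. The transgenes encode mutant amyloid precursor protein and presenilin 1 under the mouse prion protein promoter, and the strain is a model of amyloid deposition. Ribosomal RNA was depleted and all other RNA was sequenced as single libraries on the Ion Proton platform, with no size selection between short and long RNA. The 8 columns of counts carry numbers that neither the labels nor the study's text pair with a genotype. The libraries are therefore numbered 1 to 8 after the columns, no genotype was assigned to any of them, and no comparison of APP/PS1 with wild-type was made. Values over the 8 libraries are given as the median with the lowest and highest, and they mix both genotypes.

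Box C/D snoRNAs are short nucleolar RNAs that guide methylation of the ribose in other RNAs, mainly ribosomal RNA. They are named after 2 conserved motifs, the C box near the 5′ end and the D box near the 3′ end, on which the proteins Snu13, Nop56, Nop58 and fibrillarin (Fbl) assemble. The stretch upstream of a D box pairs with the target RNA. A few members, such as U8 (Snord118), act in cutting and folding of the ribosomal RNA precursor, and others guide modification of the spliceosomal U6 RNA. In mammals most of them lie in introns of a host gene and are trimmed out of the intron after splicing.

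The annotated sequences show what unites the members. Of the 3 genes with the highest median level, 2 are printed here with the letters TGATGA of the C box, where they start and end within the first 20 bases, and CTGA of the D box, likewise within the last 20 bases, in capitals.
Snord89: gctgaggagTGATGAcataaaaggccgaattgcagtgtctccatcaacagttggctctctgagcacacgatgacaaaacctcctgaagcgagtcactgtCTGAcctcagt
Snord104: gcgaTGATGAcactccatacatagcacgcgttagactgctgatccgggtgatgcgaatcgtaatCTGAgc
In GRCm38, Snord89 lies at chr1:39548745-39548854, minus strand, within the noncoding gene Gm15832. Snord104 lies at chr11:106500993-106501062, plus strand, and no listed gene on its strand spans it. The exact letters of the C box were found in 51 of the 79 members (64.6%), those of the D box in 77 (97.5%), and both in 49 (62.0%). Among 6929 other listed genes with a single annotated transcript of 64 to 238 bases, the length range of the members, 3.75% had both. Box C/D snoRNA genes that are not members were not removed from that set. None of 42 genes for H/ACA snoRNAs (Snora), the other main snoRNA class, had both. Only the strand of each RNA was searched, and the motifs do not overlap. The letters were as frequent in members with reads (26 of 42 with both) as in members without (23 of 37). No match says only that these letters are absent from the window searched.

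Of the 79 members, 54 lie within a protein-coding gene on their own strand, 22 within another listed gene and 3 (Snord13, Snord104 and Snord118) within none. There were 52 distinct host genes, of which 14 encode ribosomal proteins and hold 21 members. The host taken was the listed gene with the most reads among those on the same strand that span the member. Other hosts act in making the same particles, such as Nop56 and Nop58.

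The libraries differed before any member is considered. Total gene counts ran from 6607141 in library 1 to 16815075 in library 3. No 2 libraries agreed within counting noise over genes with at least 10 reads in each, with a chi-square per degree of freedom of at least 36.2 in all 28 pairs. Every marker listed for hippocampal neurons, astrocytes, oligodendrocytes and microglia had reads in every library. Choroid plexus markers (Ttr, Folr1 and Kcnj13) summed to 286 to 923 CPM (the reads of a gene per 1000000 gene counts of its library) and the haemoglobin genes Hbb-bs and Hba-a1 to 40.4 to 83.0 CPM. Libraries 1 and 2 stood apart in their snoRNA content, as described next, so results are also given without them. Libraries 1 and 2 also had the fewest counts. By the study's own library metrics they had the lowest final molarities, the highest shares of duplicated sequences and the shortest mean reads. The part of depth, read length and these other traits in their snoRNA content was not tested. Genotype, sequencing pool and library cannot be told apart there.

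The members held a median of 0.568% of all gene counts (0.400% to 4.03%). The share was 4.03% in library 1 and 2.36% in library 2. In libraries 3 to 8 it lay between 0.400% and 0.807%, with a median of 0.542%, so both libraries were well above the range of the others. All 1507 snoRNA genes together took 12.5% of the counts in library 1, 4.28% in library 2 and 1.55% to 2.83% in the others. The members made up 55.2% of all snoRNA reads in library 2. In library 1 that share was 32.3% and elsewhere 24.0% to 30.7%, so library 2 lay above the others in this share as well. In bulk tissue, fewer cells of a type and less RNA per cell cannot be told apart.

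**Figure D1:**
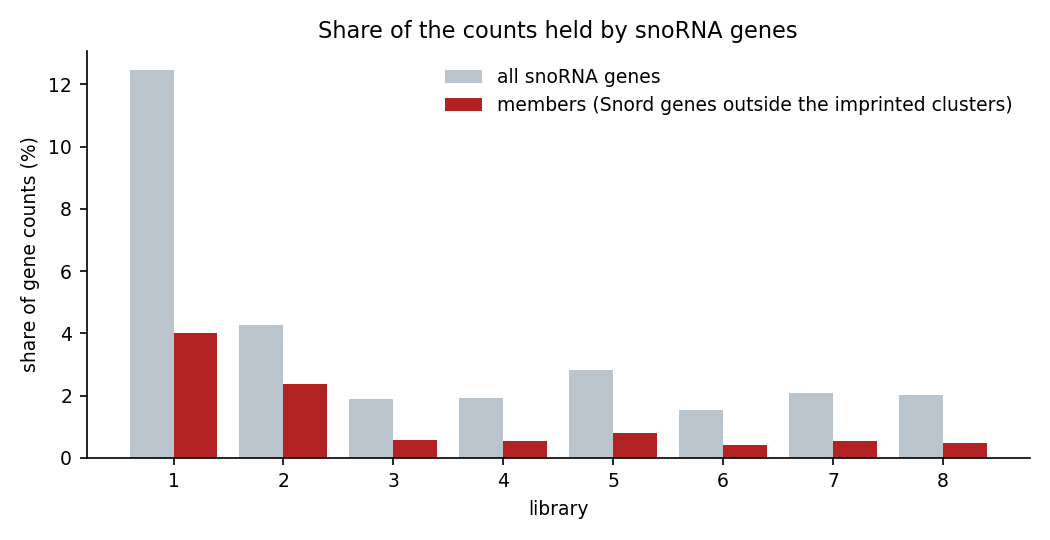
Share of the gene counts held by all snoRNA genes (grey) and by the 79 members (red) in each of 8 libraries, in percent, on an axis from 0. The members take 4.03% in library 1 and 2.36% in library 2, and no more than 0.807% in libraries 3 to 8.

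Reads were assigned to 42 of the 79 members, and 37 had 0 reads in all 8 libraries. The line between them followed the annotation of other genes. All 37 members without a read had every base within an annotated exon of another gene. The 38 members with no base in such an exon all had reads, from 92 (Snord93) to 136621 (Snord55) over the 8 libraries and with a median of 15765. The 4 members covered in part also had reads. Snord66, covered over 1.33% of its length, had 923 reads, Snord42b (31.9%) had 1628, Snord111 (77.5%) had 1 and Snord67 (83.8%) had 17. A count of 0 in 1 library, taken by itself, allows up to 3 counts there, 0.178 to 0.454 CPM at these depths, for counting error only.

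**Figure D2:**
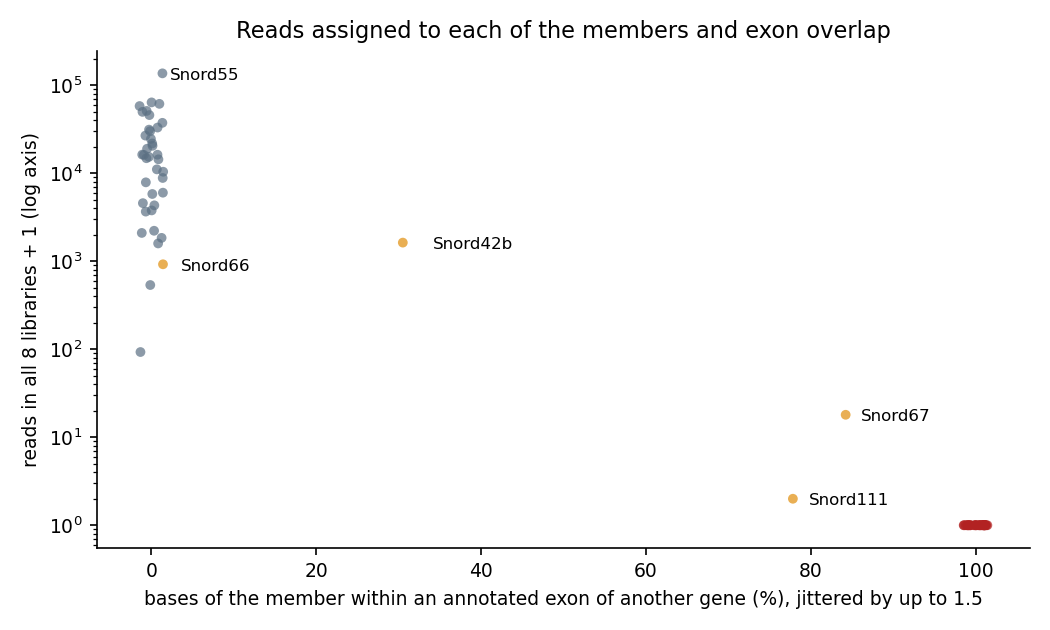
Reads assigned to each of the 79 members over 8 libraries, plus 1, on a log axis, against the share of its bases that lie within an annotated exon of another gene, in percent with a sideways scatter of up to 1.5. The 37 members at 100% are all at 0 reads, the 38 at 0% all have reads, and the 4 between them (orange) have 1 to 1628 reads.

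Genes outside the members showed a like split, though a less complete one. Of 1187 other listed genes whose bases all lie in exons of other genes, 1182 (99.6%) had 0 reads in every library, against 14.2% of 43468 genes with no such base. All 404 fully covered miRNA genes and all 27 fully covered snRNA genes were at 0, as were 133 of 135 other snoRNA genes. Among genes of these classes with no covered base, 36.2% of miRNA genes, 35.8% of snRNA genes and 35.0% of other snoRNA genes were at 0, so a 0 was also common without such cover. How the authors' counting treated a read that falls in exons of more than 1 gene is not given in the sources used here. A listed 0 of a covered member thus cannot be read as a measured level of its RNA, and none of these 37 members is described as unexpressed.

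The covering exon was mostly one of the host itself. In 28 of the 37 members a retained intron, a transcript in which the intron that holds the snoRNA was left unspliced, was among the covering transcripts. In 35 members the cover was on the member's own strand. Snord42a and Snord4a, in introns of Rpl23a, were covered only by exons of Tlcd1 on the opposite strand, and they too had 0 reads. Whether strand was used in counting is not given in the sources used here.

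Neighbours within 1 host show the split most plainly, since they come from the same precursor RNA. There were 6 hosts with members on both sides, of which 5 are described. In Nop56, which encodes a core protein of the box C/D particle, Snord110 had 21817 reads and Snord57 had 0. In Rps3, Snord15a had 3782 reads and Snord15b had 0. In the uncharacterised gene 2410002F23Rik, Snord88c had 1593 reads and Snord88a had 0. In Rpl23a, the partly covered Snord42b had 1628 reads, and Snord42a and Snord4a had 0. In Rpl13a, Snord32a, Snord34 and Snord35a had reads and Snord33 had 0. Snord33 is also overlapped by the miRNA gene Mir5121, and the study quantified miR-5121 in its separate count of miRNAs. Pairs of these neighbours are printed to show that members without reads carry boxes like those of the counted ones, with the exact letters in capitals as above.
Snord32a: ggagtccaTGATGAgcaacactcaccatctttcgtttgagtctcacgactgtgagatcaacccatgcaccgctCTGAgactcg
Snord33: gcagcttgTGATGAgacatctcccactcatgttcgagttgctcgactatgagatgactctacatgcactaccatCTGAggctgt
Snord42b: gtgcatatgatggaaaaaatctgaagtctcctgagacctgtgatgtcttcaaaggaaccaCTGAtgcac
Snord42a: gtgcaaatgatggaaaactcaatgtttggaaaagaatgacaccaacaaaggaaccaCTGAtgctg
Snord32a lies at chr7:45127382-45127464, minus strand and Snord33 at chr7:45126864-45126947, minus strand. Snord42b lies at chr11:78183056-78183124, minus strand and Snord42a at chr11:78181299-78181363, minus strand. Snord33, with 0 reads, has both boxes by these letters, as has Snord32a with 61503 reads. Snord42a and Snord42b both have the D box letters, and neither has the C box letters in the window searched.

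For several well-known hosts no member could be measured. All 4 Snord genes in Gas5 (Snord47, Snord78 and both Snord80 genes), all 3 in Hspa8 (Snord14c, Snord14d and Snord14e), all 3 in 1810032O08Rik (Snord1a, Snord1b and Snord1c) and both in Snhg5, Gnl3, Rabggtb and Rack1 were fully covered and at 0. Gas5, a noncoding host gene, had itself a median of 19.8 CPM (12.6 to 33.2), and Snhg5 a median of 3.39 CPM (1.82 to 4.84). Of the 21 members in ribosomal protein hosts, 10 had reads and 11 had none.

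Among the 42 members with reads, a few held most of them. The members had 882069 reads in all, of which 7 members held 50% and 22 held 90%. The 10 leading members took a median of 64.5% of the member reads of a library (56.3% to 70.6%). With at least 10 reads in every library there were 35 members. The other 7 were Snord53, Snord23, Snord34, Snord123, Snord93, Snord67 and Snord111.

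Snord89 had the highest median, 711 CPM (387 to 1133), and Snord55 followed with 524 CPM (294 to 7063). Snord104 had a median of 474 CPM (232 to 1716) and Snord83b, in the ribosomal protein gene Rpl3, of 376 CPM (240 to 837). The ranges of these 4 members overlap widely, so their order is not firm. Snord55 was the largest single member in libraries 1, 2 and 4, where it took 17.5%, 26.7% and 11.4% of member reads. Snord89 led in libraries 3, 5 and 8, Snord8 in library 6 and Snord49b in library 7. Per kilobase of length, Snord104 (6774 CPM per kb), Snord55 (6635 CPM per kb) and Snord89 (6462 CPM per kb) had medians close to each other. Most members are about as long as the mean reads in the study's library metrics. Division by length may therefore favour the shortest members, which was not tested.

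The next members by median lie in hosts of many kinds. Snord49b and Snord49a, neighbours in the noncoding gene 2410006H16Rik, had medians of 349 and 284 CPM. Snord65, in the same gene, had a median of 89.0 CPM (23.4 to 240). Snord32a, in Rpl13a, had a median of 284 CPM (129 to 3421). Snord17, the longest member with 238 bases, lies in the sorting nexin gene Snx5 and had a median of 240 CPM (26.4 to 629). Snord71, in the adaptor protein gene Ap1g1, had a median of 237 CPM (45.5 to 5852), and Snord61, in the RNA-binding protein gene Rbmx, of 232 CPM (70.4 to 1768). Snord110 had a median of 218 CPM (73.8 to 890). The 20 highest medians also included Snord37, Snord11, Snord85, Snord91a, Snord73a and Snord92, between 108 and 143 CPM.

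**Figure D3:**
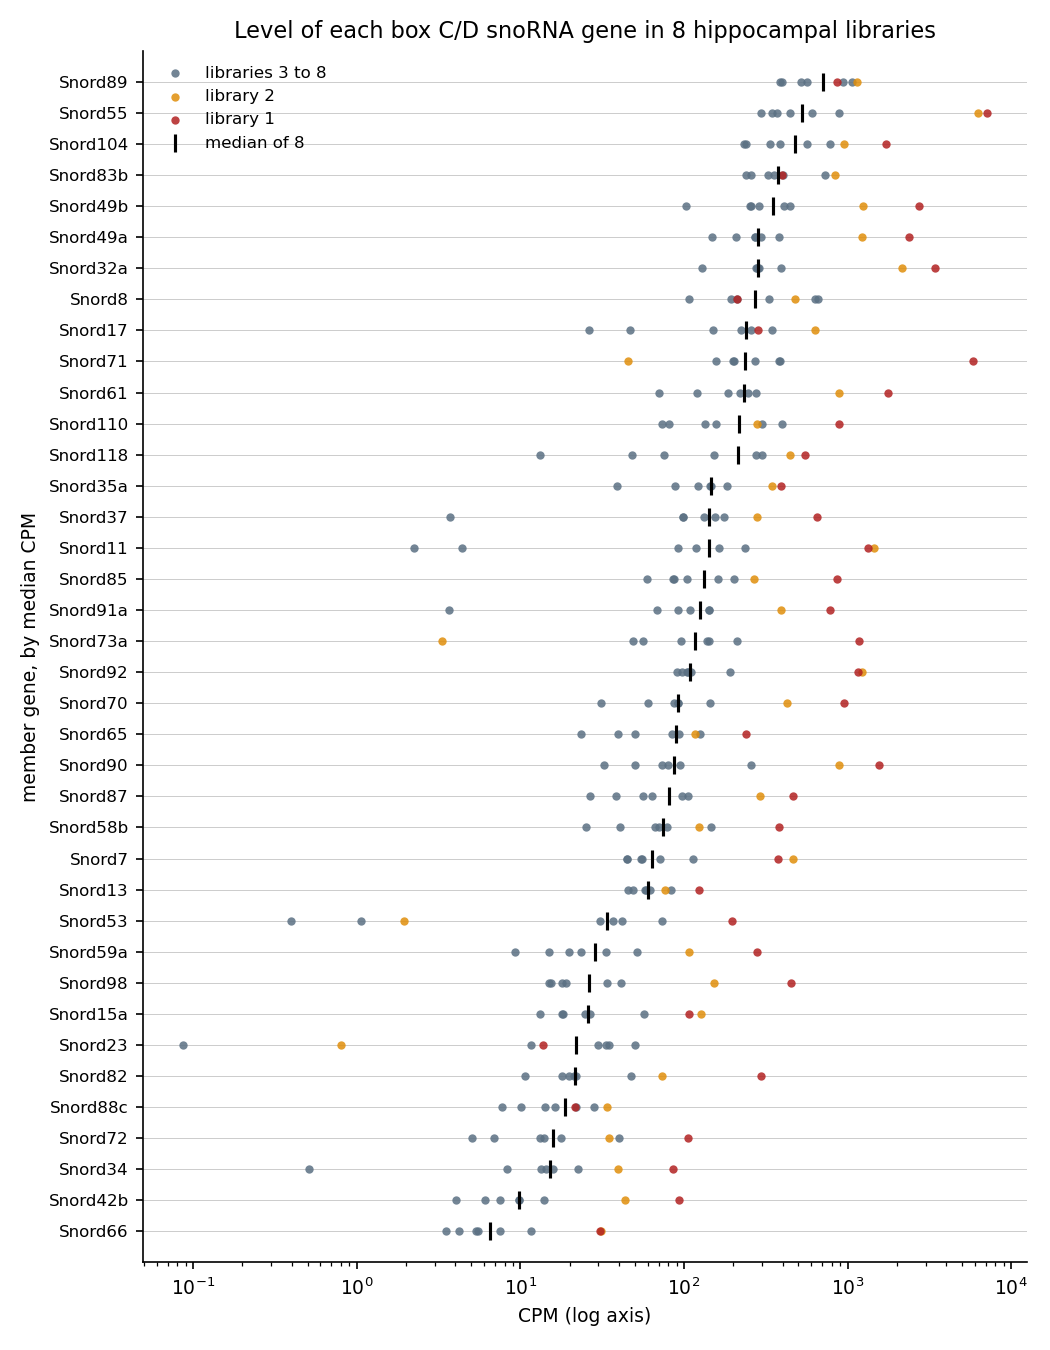
CPM on a log axis of the 38 members with a median of at least 5 CPM, 1 row per member in order of the median (black bar), with a point for each of 8 libraries (library 1 red, library 2 orange, libraries 3 to 8 grey). Snord71 reaches 5852 CPM in library 1 and 45.5 in library 2. Grey points of Snord11, Snord37, Snord91a, Snord53, Snord23 and Snord34 lie far below most of their row.

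Members listed for processing of the ribosomal RNA precursor were mostly out of reach. Snord118 (U8), needed for maturation of the large-subunit RNAs, had a median of 214 CPM (13.1 to 546). Its lowest value, in library 4, was well under the next, 48.3 CPM in library 6. Of the 30-base windows of its sequence, 33.0% also occur in the annotated gene Gm24208, so its reads may be split. Snord13 (U13), which acts on the small-subunit RNA, had a median of 60.3 CPM (45.5 to 124) and was the steadiest of the members with 10 reads in every library, its highest value being 2.73 times its lowest. All 4 Snord14 genes (U14, which guides and also folds the small-subunit precursor) and Snord22 were fully covered and at 0. No Snord3 (U3) gene was among the members. Snord118 and Snord13 have their own transcription units, and neither has the exact C box letters in the first 20 bases, as the sequence of Snord118 shows.
Snord118: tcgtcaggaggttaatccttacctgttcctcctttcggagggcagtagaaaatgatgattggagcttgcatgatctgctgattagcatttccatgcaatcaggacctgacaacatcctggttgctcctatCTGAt
Snord118 lies at chr11:69073427-69073561, plus strand.

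Of the members that guide methylation of U6 RNA, Snord8, in the chromatin remodeller gene Chd8, had a median of 271 CPM (108 to 662). It was 1 of the 2 members whose level in library 1 was below the median of libraries 3 to 8. Snord7, in AA465934, had a median of 63.4 CPM (44.6 to 466). Snord67, in the microtubule-binding protein gene Ckap5, had 17 reads in all and is covered over most of its length by an annotated exon of Ckap5 itself. Snord9 and Snord94 were not among the members.

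The 4 members in introns of Rpl13a are known for leaving the nucleus in cells under lipid stress. Snord32a had the highest median of them, at 284 CPM. Snord35a had a median of 146 CPM (38.7 to 392) and Snord34 of 15.1 CPM (0.513 to 85.8). The ranges of Snord32a and Snord34 do not overlap, although both come from the same host RNA, and within each of the 8 libraries Snord32a was higher than Snord35a and Snord35a higher than Snord34.

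Levels of members and hosts showed no visible relation. Over the 32 members with a host and at least 10 reads in every library, the median CPM per kb of the member and of its host had a Spearman correlation of 0.0061 and a Pearson correlation on the log10 scale of -0.087. These points share libraries, and some share a host. All 32 members were above their host per kilobase, by a median of 148 times, from 3.38 times for Snord66 in Eif4g1 to 8242 times for Snord89 in Gm15832. The read filter had removed members with few reads. Of these, Snord67 (1.46 CPM per kb against 15.4 for Ckap5) and Snord111 (0 against 5.91 for Sf3b3) were below their host. Snord53, Snord23, Snord34, Snord123 and Snord93, also removed, were above theirs. A host's length here is that of all its annotated exons together. Since most members are about as long as a read, this scale may raise them against long hosts, which was not tested. The study also considers it likely that PCR leaves small noncoding RNA overrepresented in its libraries. The core proteins of the particle were steady beside the members. Fbl, the methyltransferase, had a median of 9.62 CPM (8.16 to 12.7), Nop56 of 32.0 CPM (26.9 to 48.9), Nop58 of 32.8 CPM (23.6 to 47.2) and Snu13 of 28.5 CPM (23.3 to 33.5). The 7 assembly factors (Nufip1, Znhit3, Znhit6, Ruvbl1, Ruvbl2, Rpap3 and Pih1d1) summed to 77.4 CPM (62.7 to 99.4), and the 6 noncoding hosts Gas5, Snhg1, Snhg5, Snhg6, Snhg12 and Zfas1 to 49.0 CPM (32.3 to 69.3).

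Members differed far more between libraries than their hosts did. Over the 35 members with 10 reads in every library, the highest CPM was a median of 20.8 times the lowest, from 2.73 times (Snord13) to 652 times (Snord11). Without libraries 1 and 2 the median ratio was 4.27 times. Leaving out library 1 alone brought it to 10.2 times and library 6 alone to 11.4 times. For 44 host genes with a median of at least 5 CPM it was 2.35 times over all 8 libraries. The 3 steadiest members were Snord13, Snord89 (2.93 times) and Snord83b (3.49 times). The 3 that differed most were Snord91a (213 times), Snord73a (358 times) and Snord11.

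Most members were highest in libraries 1 and 2. Of 38 members with a median of at least 5 CPM, 27 had their highest CPM in library 1 and 9 in library 2, and the other 2 elsewhere. Library 1 was above all of libraries 3 to 8 for 32 of the 38 members, and library 2 for 28. The CPM in library 1 was a median of 7.25 times the median of libraries 3 to 8, and in library 2 of 3.46 times. The 44 host genes had a median of 0.776 times in library 1 and 0.915 times in library 2.

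The ratio of library 1 to libraries 3 to 8 was not the same for all members. It was 24.7 times for Snord71, 24.3 times for Snord98, in the coactivator gene Ccar1, and 20.3 times for Snord90, in Rc3h2. For Snord55 it was 17.4 times. By contrast Snord83b was at 1.17 times, Snord8 at 0.772 times and Snord23, in the ribosome biogenesis gene Nop53, at 0.435 times. The 25 members shorter than 90 bases had ratios of 3.57 to 24.7, with a median of 8.96, and the 13 members of 90 bases or more had ratios of 0.435 to 20.3, with a median of 2.14. Over all 38 members length and the ratio had a Spearman correlation of -0.383. In library 2 the correlation with length was 0.057, and the median ratio was 4.38 for the 25 members shorter than 90 bases and 2.59 for the 13 longer ones. The divide at 90 bases was chosen after the values were seen, and the points share 1 library.

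**Figure D4:**
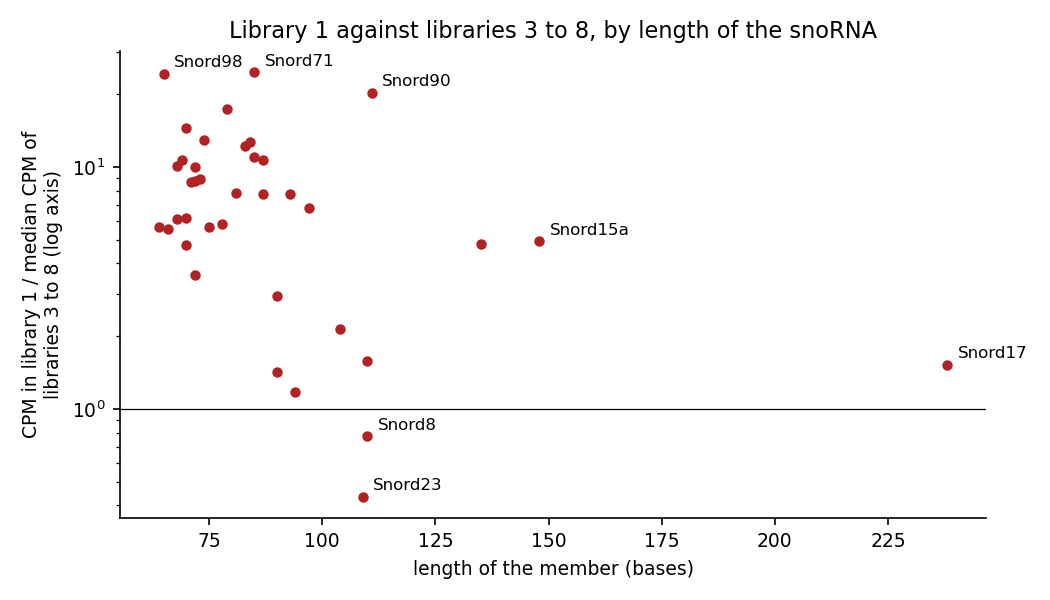
CPM in library 1 divided by the median CPM of libraries 3 to 8 on a log axis, against the length of the member in bases, for 38 members with a median of at least 5 CPM. The horizontal line marks equal levels. Members under 90 bases all lie at 3.57 or above, and the lowest points, Snord8 and Snord23, are longer than 100 bases.

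A second pattern concerned single members in single libraries. For each member the shift shared by all members in a library was removed on the log2 scale of CPM plus 0.5, and the departure of each library from the member's own median was taken. In 9 of 38 members (23.7%) at least 1 library lay 3 or more log2 units, 8-fold, below, and 14 pairs of member and library did so in all. No pair lay as far above. In 12 of the 14 pairs, from 8 members, the CPM itself was also more than 8-fold below the member's median. Snord71 in library 2 and Snord23 in library 1 were the exceptions, at 45.5 and 13.8 CPM against medians of 237 and 21.8.

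On this centred scale the largest single drop was that of Snord11, which lies in Nop58, in library 5. By plain CPM the largest was Snord23 in library 8, 250.4 times below its median on 1 read. Snord11 had 1335 and 1451 CPM in libraries 1 and 2 and 91.9 to 236 CPM in libraries 3, 4, 6 and 8, but 2.23 CPM (21 reads) in library 5 and 4.43 CPM (53 reads) in library 7. Its neighbour in the same host, Snord70, had 91.8 and 145 CPM in those 2 libraries and 31.3 to 950 CPM over all 8. Nop58 itself had 29.9 and 37.8 CPM there. In libraries 5 and 7 Snord11 was thus below its neighbour by a wide margin, while in libraries 1, 2, 3, 4, 6 and 8 it was above it.

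Snord53, in the ribosome biogenesis gene Wdr43, fell into 2 separate ranges. It had 1.93 CPM (17 reads) in library 2, 1.06 CPM (10 reads) in library 5 and 0.396 CPM (5 reads) in library 6, and 30.8 to 196 CPM in the other 5 libraries. Its neighbour Snord92 had 1220, 191 and 91.1 CPM in libraries 2, 5 and 6, against 97.7 to 1158 CPM in the rest. The drops of Snord53 therefore did not extend to the other snoRNA of the host. The sequences of both pairs of neighbours are given to show how they differ, with the box letters in capitals.
Snord11: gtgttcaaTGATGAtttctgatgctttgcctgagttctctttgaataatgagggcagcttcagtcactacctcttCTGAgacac
Snord70: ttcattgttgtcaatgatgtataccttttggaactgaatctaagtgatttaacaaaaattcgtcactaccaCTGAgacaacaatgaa
Snord53: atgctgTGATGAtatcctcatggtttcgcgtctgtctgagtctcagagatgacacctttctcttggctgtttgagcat
Snord92: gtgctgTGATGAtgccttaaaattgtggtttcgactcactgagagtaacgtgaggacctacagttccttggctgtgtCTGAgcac
Snord11 lies at chr1:59704790-59704873, plus strand, Snord70 at chr1:59691934-59692020, plus strand, Snord53 at chr17:71640879-71640956, plus strand and Snord92 at chr17:71631281-71631365, plus strand.

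The other drops were spread over several members. Snord73a, in Rps3a1, had 3.30 CPM in library 2 and 48.7 to 1180 CPM in the others. Snord37, in the elongation factor gene Eef2, had 3.72 CPM in library 6 and 98.1 to 648 CPM in the others. Snord91a, in the ribosome assembly gene Tsr1, had 3.65 CPM in library 6 and 68.8 to 777 CPM in the others. Snord34 had 0.513 CPM (6 reads) in library 4, where Snord32a and Snord35a of the same host had 275 and 38.7 CPM. For Snord35a this was also its own lowest level. Snord23 had 1 read in library 8 and 7 in library 2, and 11.6 to 50.2 CPM in the other 6, of which library 1 also counted as a drop relative to the other members there. Snord17 had 26.4 CPM in library 5. By library, the 14 pairs fell as 4 in library 2, 3 each in libraries 5 and 6, 1 each in libraries 1, 4, 7 and 8, and 0 in library 3, so no library held all of them.

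**Figure D5:**
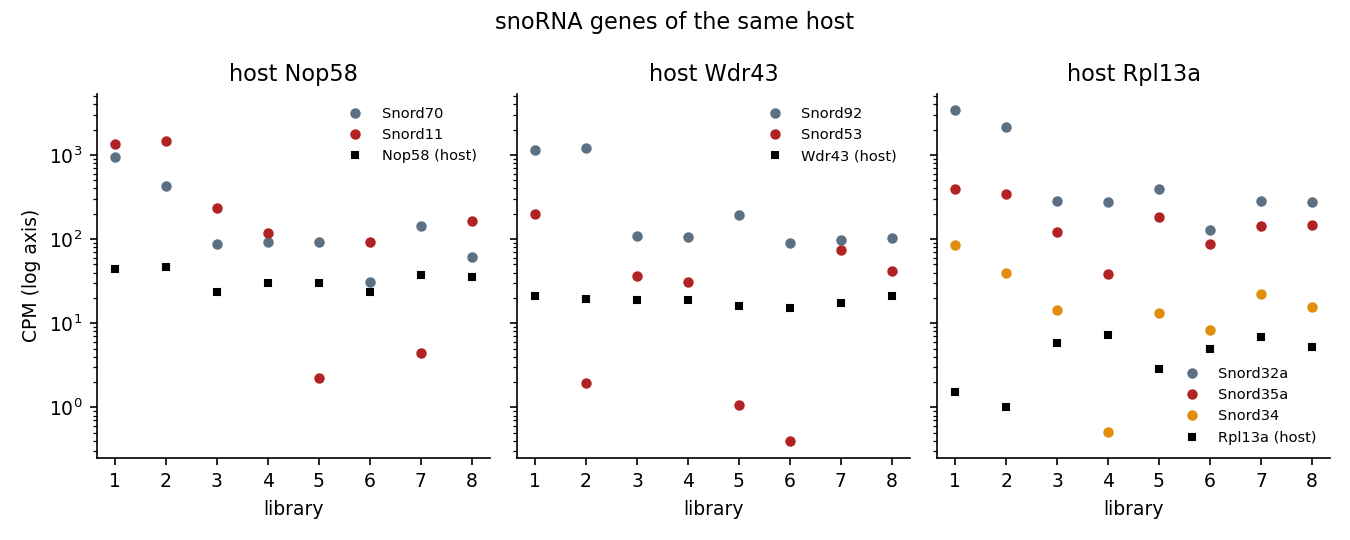
CPM on a log axis in libraries 1 to 8 for snoRNA genes of the same host (circles) and for the host gene (black squares), for Nop58, Wdr43 and Rpl13a. Snord11 lies at 2.23 and 4.43 CPM in libraries 5 and 7, and Snord34 at 0.513 CPM in library 4. Snord53 lies at 0.396 to 1.93 CPM in libraries 2, 5 and 6. In the libraries named for each host, its other snoRNA genes plotted are at 38.7 CPM or more. Snord35a, at 38.7 CPM in library 4, is at its own lowest level there.

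Such drops were not seen to the same extent in long RNAs. With the same measure, each class being centred on itself and held to a median of at least 5 CPM, 1 of 44 host genes (2.27%) and 5 of 10615 protein-coding genes (0.0471%) had a library 3 or more log2 units below. Among short RNAs the share was 63 of 174 other snoRNA genes (36.2%), 17 of 50 miRNA genes (34.0%) and 7 of 65 snRNA genes (10.8%). The members' 23.7% lay within the range of these short classes, so the drops are not particular to the members. Only annotated transcripts were compared for shared sequence, and copies elsewhere in the genome were not searched for. Of the members with reads, 4 (Snord118, Snord58b, Snord88c and Snord93) share some window of 30 bases with another annotated gene. None of the 9 members with a drop at 3 log2 units does. Just short of that cut, Snord118 lay at -2.86 in library 4 and Snord88c at -2.02 in library 1. Matches shorter than 30 bases were not searched, and the part of shared sequence in the drops was not tested.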

How the data were processed

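Hippocampal total RNA of 8 mice was sequenced by the authors after ribosomal RNA depletion. Per the labels and the study's methods, reads were trimmed (Trimmomatic), aligned with STAR 2.5.4b to GRCm38 (mm10) and counted per gene with featureCounts. Settings for strand, multi-mapped reads and reads in exons of several genes are not given in the sources used here. The authors deposited raw counts for 55487 genes with a gene length in bases. The 8 columns are named by sample number. Their names show mouse hippocampal RNA by the study's naming, but no genotype, so the columns were treated as 8 libraries of 1 tissue. A genotype was not inferred from column order or from transgene levels. Depth was 6607141 to 16815075 counts per library, and 0 further columns of per-sample values were left unused. Nothing in the labels ties columns to separate pools.

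From the counts, CPM were computed with the sum of each column. Genes were joined to GENCODE M21 by identifier (55227 matched, 260 did not), which also gave exons, hosts and transcript sequences. A base was covered where an annotated exon of another gene, on either strand, included it. Shared sequence was measured as exact 30-base windows on both strands. Departures used log2(CPM + 0.5), with library and gene medians removed. No test between groups was run, since no groups could be formed. Single libraries that lay apart were sought with Dixon's ratio. Genes named were the 20 members of highest median, the members of lists by role, the highest and lowest of each host with 3 or more members, and the 3 most and least variable, with further members named after their values were seen. Members and lists were chosen with earlier results of these data known, and the overlap and drop comparisons and the sequences printed were chosen after the values were seen. The overlap and drop steps were tested on simulated data. Python 3.11.15, pandas 2.3.3, R 4.3.3, edgeR 4.0.16 (TMM) and DESeq2 1.42.0 (size factors only) were used. A host gene and some sequences are not reported here.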

Additional observations from a re-analysis of the deposited data

Results flagged for a closer look

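Among 38 members with a median of at least 5 CPM, 3 had a library that lay far from the other 7 by Dixon's ratio on log2(CPM + 0.5), the gap to the nearest library as a share of the whole range, past the 95% critical value for 8 libraries. Chance gives about 1 in 20 such results, and 3 of 38 members is not far above that share. The share among other genes was not computed. The 8 libraries mix both genotypes. Snord71 was high in library 1, at 5852 CPM against 45.5 to 386 CPM in the others (ratio 0.561). This ratio was taken without removing the shift shared by all members, and most members were high in library 1. With that shift removed, the departure of Snord71 was 1.92 log2 units in library 1 and -3.90 in library 2. Snord37 was low in library 6, at 3.72 CPM against 98.1 to 648 CPM (ratio 0.626). Snord91a was low in the same library, at 3.65 CPM against 68.8 to 777 CPM (ratio 0.538). What sets these libraries apart was not tested.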

How the results depend on the processing

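The number of members with enough reads (35), the members' share of counts (0.568%) and the share of the 10 leading members (64.5%) stayed within their limits under every alternative run. Other minimum counts gave 35 to 42 members, and leaving out each library 35 to 37. The share of counts was 0.785% without snRNA, miRNA and misc_RNA in the denominator, and 0.553% to 0.583% with each library left out. The leading share was 66.7% without members that share sequence with another gene, and 64.3% to 64.6% with each library left out. The alternative without U3 genes gave no value, because none are members. The highest over the lowest summed level was 10.1 times by CPM, 8.81 with TMM and 8.78 with DESeq2 size factors, but 2.02 without libraries 1 and 2. The median spread of members (20.8 times) was 4.28 relative to the members' sum and 4.27 without libraries 1 and 2, and 10.2 to 20.8 with each library left out. Members with a drop numbered 9 at 3 log2 units, 13 at 2 and 4 at 4 units, 9 with a pseudocount of 0.1, and 7 without libraries 1 and 2. The alternatives that leave out libraries 1 and 2 and those for drops were chosen after seeing the data. Comparisons of APP/PS1 with wild-type and their alternatives were not run. No paired analysis was possible because the columns carry no genotype and no replicate number of the labels. Snord67, Snord93 and Snord111 have 17, 92 and 1 reads in all, too few to compare libraries, and whether depth or the exons that cover most of Snord67 and Snord111 set this was not tested.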
